A study of Rattus norvegicus with 6 samples.

Results

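The genes described here encode the potassium channels, the voltage-gated sodium channels and the HCN channels, which carry a mixed sodium and potassium current. They were taken by gene symbol from the deposited count table of primary rat brain microvascular endothelial cells (rBMECs), as the symbols that begin with Kcn and a family letter, the HCN genes, and the alpha and beta subunits of the Scn family. This gave 109 of the 33566 genes in the table. The RNA-seq data comprised 6 libraries of cells kept for 24 h with homocysteine (Hcy, 3 libraries) or with the vehicle, water (Veh, 3 libraries). Hcy is an amino acid formed from methionine. The sample labels give an Hcy dose of 100 μM, while the treatment protocol also mentions a solution of 50 μM, so the dose is not certain. The cells of both groups came from the cerebral cortex of Sprague-Dawley rats 18 to 22 days of age (the forebrain in the methods of the study), were purified in culture with a selection medium and were used after a single passage. The design text calls the libraries of a group biological replicates but does not say how many animals were pooled in each, so p-values measure the spread between these cultures. All libraries were made from poly(A) RNA and held 14024997 to 16764584 counted reads.

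Potassium channels let potassium leave the cell and hold the membrane potential negative. In brain capillary endothelium the inward rectifiers sense potassium released by active neurons and pass a hyperpolarization upstream to the arteriole, and calcium-activated potassium channels contribute to dilation. Voltage-gated sodium channels and HCN channels are best known for firing and pacemaking in neurons and heart muscle. Many of these channels are built from pore subunits plus auxiliary subunits, which change gating or delivery to the membrane and can be transcribed where their pore partner is not.

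The labelled cell type was checked against its markers. Of 19 endothelial markers 17 were in the table, and 15 of them had a mean above 10 CPM (counts scaled to library size with TMM factors). Cdh5, which encodes VE-cadherin, was at 1961 CPM in Hcy and 1796 CPM in Veh. Cldn5, a tight junction gene, had 0 counts in all 6 libraries. Of 14 neuronal markers 6 had 0 counts, among them Rbfox3, Snap25 and Map2, and their summed level was 7.39 to 10.3 CPM in Hcy and 5.42 to 7.72 CPM in Veh. Astrocyte markers summed to 114 to 117 CPM in Hcy and 127 to 151 CPM in Veh, most of it from Gja1. Oligodendrocyte lineage markers were at 66.4 to 71.1 and 63.0 to 72.6 CPM, mostly from Cnp. Fibroblast markers were at 44.9 to 68.7 and 63.5 to 91.2 CPM, mostly from Col1a1. Microglia and epithelial markers summed to at most 3.57 CPM. The summed level of 15 pericyte and smooth muscle markers was 682 to 708 CPM in Hcy and 1124 to 1353 CPM in Veh, most of it from the contractile genes Tagln and Acta2, and 3 of them were lower in Hcy at an adjusted p of at most 0.05 (edgeR's quasi-likelihood F test, with p-values adjusted by the method of Benjamini and Hochberg, BH, over all genes tested). The 3 were the contractile genes Tagln, Acta2 and Cnn1. The pericyte markers Pdgfrb and Rgs5 were under 3 CPM in both groups, and Atp13a5 had 0 counts. Pdgfrb and Rgs5 had log2 fold changes of 0.73 and 1.26 and did not pass (edgeR, BH-adjusted p = 0.443 and 0.464). Of the 13 markers of this list that were tested, 7 had a higher and 6 a lower fitted level in Hcy. Across all genes the first principal component parted Hcy from Veh, and on the second Veh replicate 3 stood apart, at 30.4 where the other Veh libraries were at -16.0 and -19.0.

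Few of the channel genes were transcribed at a measurable level in rBMECs. Of the 109 genes, 32 had no counts in any library, 37 had 1 to 9 counts over all 6 libraries, and 40 had at least 10 counts and were tested. Only 11, or 10.1%, reached a mean of 1 CPM, the level taken here as measurable, against 35.1% of all genes in the table. In descending order of mean CPM these included Kcne3, Hcn2, Kcnj2, Kcnmb4, Kcnj14, Kcnq1, Kcna7, Kcnj15 and Kcnk5. Kcnk5 reached this level only through its Hcy mean, 1.65 CPM against 0.511 CPM in Veh. The share with no counts, 29.4%, was lower than the 44.3% of all genes. A library with 3 counts of a gene has 0.178 to 0.215 CPM, and genes under this floor were not detectable at this depth. The floor covers counting error only. Since Cldn5, a gene of brain endothelium, also had 0 counts, a 0 in the table cannot be told apart from reads that were not counted on a gene.

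**Figure D1:**
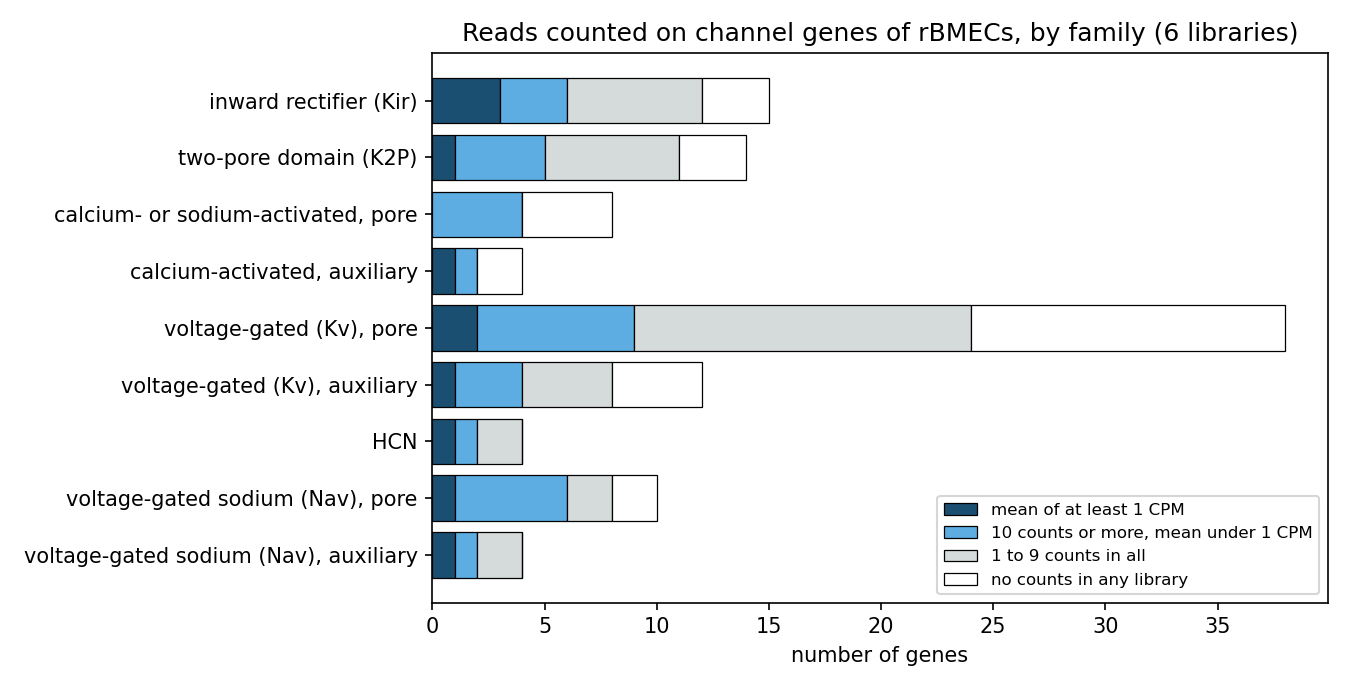
Number of channel genes (horizontal axis) in each subunit family (vertical axis), divided by the reads counted over 6 libraries. Shading runs from a mean of at least 1 CPM (darkest) to no counts (white), and each of the 9 families but the calcium- or sodium-activated pore subunits holds at least 1 gene of the darkest class.

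Reads were unevenly shared. The 109 genes together held 7854 counts, of which the auxiliary subunits of voltage-gated potassium channels held 39.3%, nearly all of it from Kcne3. The auxiliary subunits of sodium channels held 15.4%, the inward rectifiers 14.9% and the HCN genes 11.3%. The 38 pore subunits of voltage-gated potassium channels, the largest family, held 8.31%. The remaining families held 1.03% (calcium- or sodium-activated pore subunits) to 3.65% (sodium channel pore subunits).

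Summed over the 109 genes, the level was 98.6, 95.8 and 99.1 CPM in Hcy replicates 1, 2 and 3 and 73.4, 72.3 and 70.8 CPM in Veh replicates 1, 2 and 3. All Hcy libraries were thus above all Veh libraries. Kcne3 made up 39.2% to 42.0% of the channel counts in Hcy and 30.1% to 36.9% in Veh. Without Kcne3 the sum was 58.3 ± 0.926 CPM with Hcy and 48.2 ± 3.31 CPM with Veh (SD, n = 3 each), again with no overlap (57.5 to 59.3 against 44.7 to 51.3 CPM). The 98 genes with a mean under 1 CPM summed to 12.4 ± 0.611 CPM with Hcy and 12.6 ± 0.503 CPM with Veh (SD, n = 3 each), and these sums overlapped. The higher total in Hcy therefore lay in the measurable genes. In cultures sequenced in bulk, a change in the number of cells that transcribe a gene and a change in the RNA per cell cannot be told apart.

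Levels of different genes were compared per length, as RPKM (reads per kilobase of listed gene length, with counted reads scaled as for CPM). Kcne3 was the highest at a mean of 27.4 RPKM over 6 libraries, with a range of 19.1 to 35.9 RPKM. Kcnj2 was at 4.84, Hcn2 at 3.68 and Kcnmb4 at 1.82 RPKM. Hcn2 was above Kcnmb4 in 6 of 6 libraries. Kcnj2 and Hcn2 overlapped, at 2.43 to 6.48 and 3.44 to 3.93 RPKM. Below them, Kcnj15 (0.859 RPKM) and Kcnj14 (0.751 RPKM) exchanged places from library to library, and Kcnab3, Kcna7, Kcnq1, Kcns3 and Kcnk5, at means of 0.312 to 0.381 RPKM, had overlapping ranges.

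**Figure D2:**
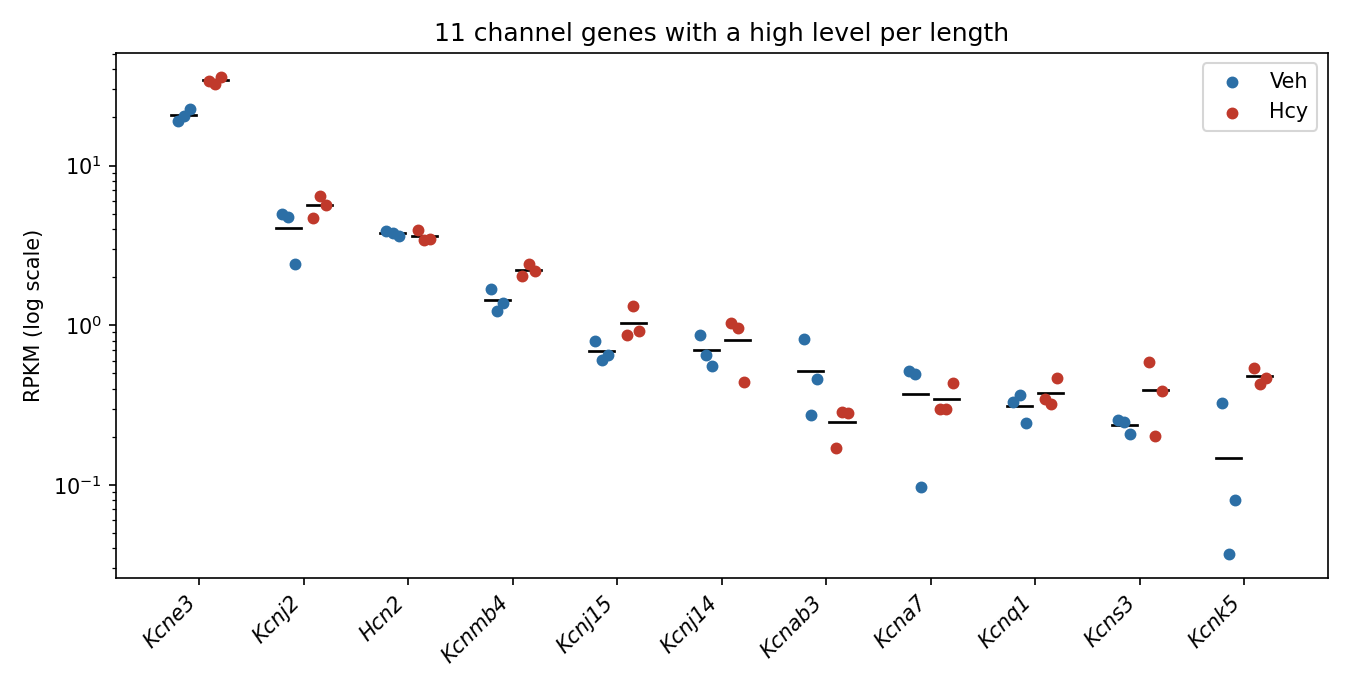
Level per length (RPKM, logarithmic vertical axis) of 11 of the 12 channel genes with the highest mean, in 3 Veh (blue) and 3 Hcy (red) libraries, with a bar at the mean of each group. Kcne3 lies above the other genes shown in every library, and the genes from Kcnj15 onward lie at or under 1.31 RPKM.

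Between Hcy and Veh, 0 of the 40 channel genes tested passed both thresholds of the comparison in edgeR's quasi-likelihood test, which were a BH-adjusted p of 0.05 or less and a log2 fold change beyond 1 in either direction. DESeq2 called 0 as well. Over all genes tested, 0.486% passed both thresholds. Without the fold threshold 1 channel gene passed, Kcne3, against 2.34% of all genes. At an unadjusted p of at most 0.05, 7 channel genes were higher in Hcy, where the share of all genes was 7.44%, and 1 was lower, where it was 5.95%. The groups did not overlap for 8 genes that were higher in Hcy, against 10.8% of all genes, and for 2 that were lower, against 9.27%. Of the 40 genes, 25 had a higher and 15 a lower fitted level in Hcy, with a median log2 fold change of 0.18, while the median of all genes tested was -0.02. Without the 3 genes at 0 in every Veh library, which have no measured fold, the median of the other 37 was 0.12. At their bounds, the Hcy mean over the floor of 3 counts per library, these 3 lie above the median, which then stays at 0.18 by construction. Over the channel genes that still passed the filter, it was 0.074 without Hcy replicate 3, 0.096 without Hcy replicate 2 and 0.28 without Veh replicate 1.

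**Figure D3:**
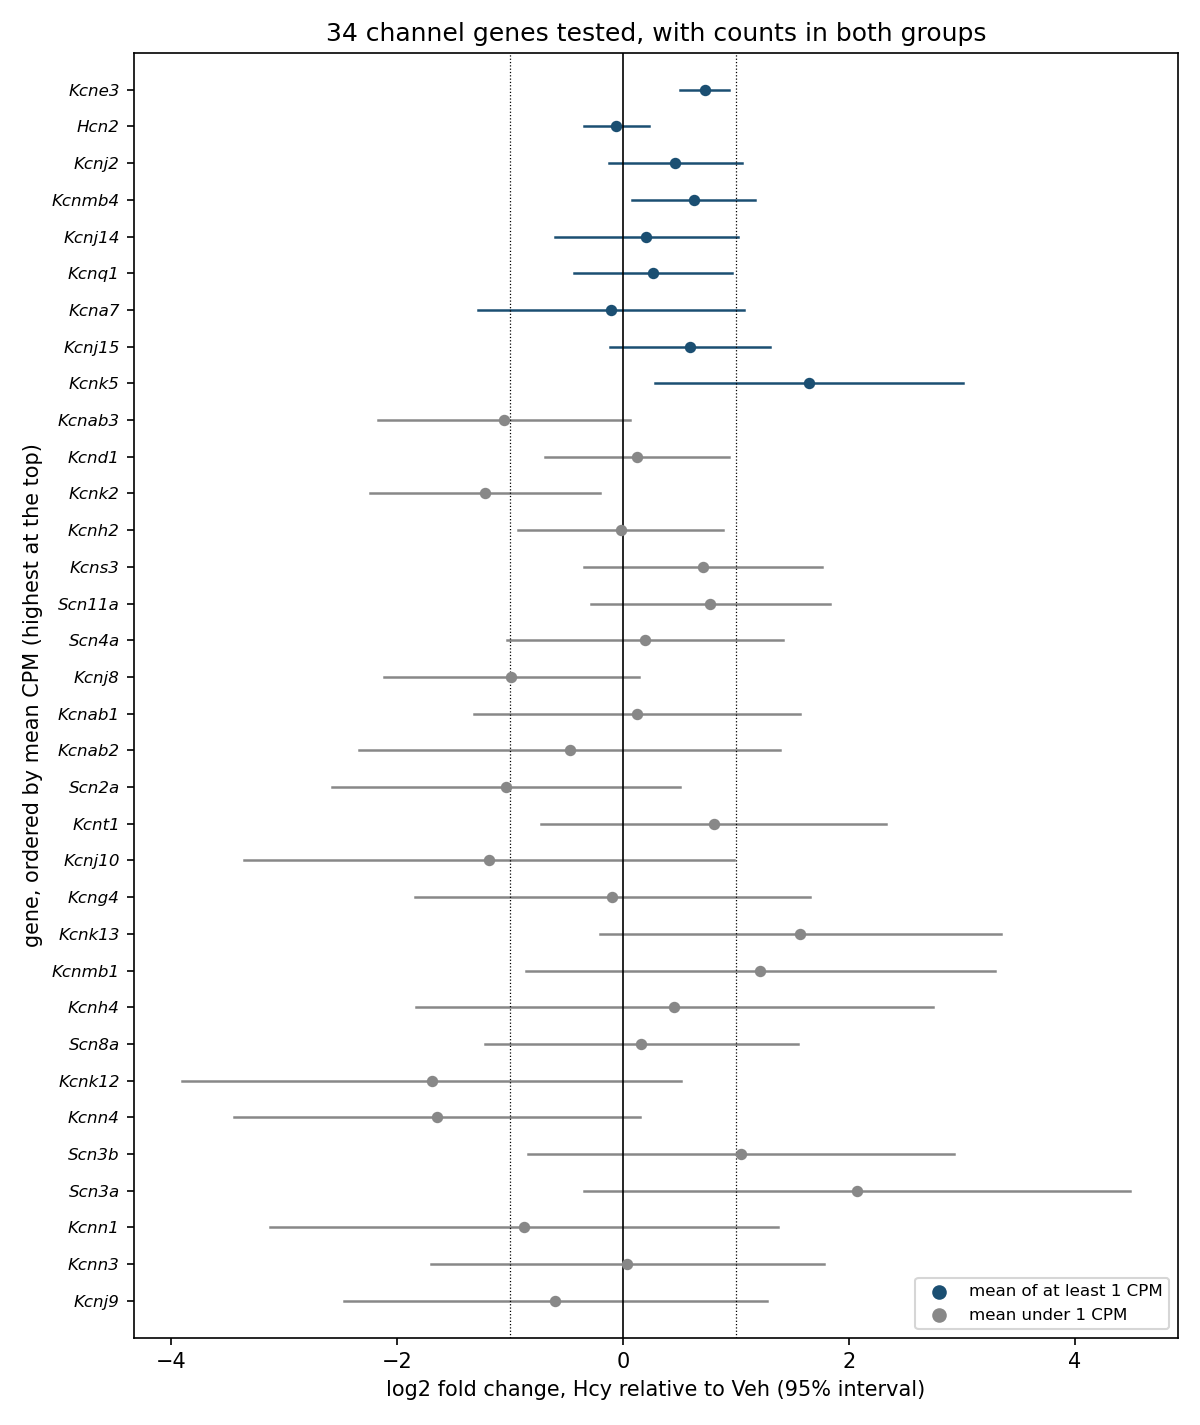
Log2 fold change of Hcy relative to Veh with its 95% interval from edgeR's quasi-likelihood fit (horizontal axis) for 34 of the 37 tested channel genes with counts in both groups, ordered by mean CPM. Dotted lines mark log2 fold changes of -1 and 1, and the intervals widen from Kcne3 at the top towards the genes with few counts at the bottom.

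Kcne3 encodes a small auxiliary subunit with a single membrane span, which assembles with voltage-gated potassium channels and holds the channel formed by the Kcnq1 protein open. It is listed on chromosome 1 from 165189985 to 165196948 (the count table names no build, and its positions on this chromosome run past the end of chromosome 1 in mRatBN7.2, so they cannot be read as that build). Kcne3 had 547, 560 and 697 counts in Hcy replicates 1, 2 and 3 and 372, 372 and 377 counts in Veh replicates 1, 2 and 3. Every Hcy library was above every Veh library. The level rose 1.65-fold, to 39.5 ± 2.00 CPM with Hcy from 24.0 ± 2.02 CPM with Veh (SD, n = 3 each). On the log2 scale this was 0.72, with a 95% interval of 0.51 to 0.94 (standard error, SE, 0.09, edgeR, BH-adjusted p = 0.00781), and by p it was gene 61 of the 14603 tested. The adjusted p was 0.0599 without Hcy replicate 3, at a log2 fold change of 0.68.

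The other auxiliary subunits of voltage-gated potassium channels had few reads. Kcnab3, which encodes a cytoplasmic beta subunit related to aldo-keto reductases, had 5, 9 and 10 counts in the Hcy libraries against 29, 9 and 14 in the Veh libraries. Its groups overlapped at the low end, and the log2 fold change of -1.05 did not pass (edgeR, BH-adjusted p = 0.409). Without Veh replicate 1 the log2 fold change of Kcnab3 was -0.55. The related genes Kcnab1 and Kcnab2 had means under 0.5 CPM in both groups and groups that overlapped. Kcne1 and Kcne2, paralogs of Kcne3, had 1 and 2 counts over all libraries, and Kcne4 and Kcne5 had 0. Of the genes for the calcium-binding KChIP subunits, Kcnip1 and Kcnip3 had 2 counts each and Kcnip2 and Kcnip4 had 0.

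Among the genes for pore subunits of voltage-gated potassium channels, Kcnq1 and Kcna7 were measurable. Kcnq1, the pore partner of the Kcne3 subunit in epithelia, had 19, 19 and 31 counts in the Hcy libraries against 22, 23 and 14 in the Veh libraries. The groups overlapped, and the 95% interval of its log2 fold change was -0.43 to 0.96. Kcna7, a channel of the Shaker family, had 15, 16 and 26 counts in the Hcy libraries against 31, 28 and 5 in the Veh libraries, with Veh replicate 3 far below the other two. Its log2 fold change of -0.11 turned positive without Veh replicate 1 or 2, at 0.20 and 0.15.

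Kcns3, which encodes an electrically silent subunit that modifies other pore subunits, had 19, 7 and 15 counts in the Hcy libraries against 10, 9 and 7 in the Veh libraries, and the groups overlapped. Kcnd1 (0.812 and 0.746 CPM in Hcy and Veh) and Kcnh2 (0.752 and 0.757 CPM), which encodes the channel that ends the cardiac action potential, differed by less than the spread between libraries. Kcnh4 and Kcng4 had means under 0.3 CPM in both groups. Of the 38 pore genes, 15 had 1 to 9 counts and 14 had none, among the latter Kcna1, Kcna4 and Kcna5.

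Kcnc2, which encodes a channel of fast-firing neurons, had 2, 4 and 7 counts in the Hcy libraries and none in Veh. It passed the count minimum only through the Hcy libraries. In 2 of the Hcy libraries it was above the floor of 3 counts, in the other it was not, and no fold is given. The difference did not pass (edgeR, unadjusted p = 0.00749, BH-adjusted p = 0.146), and DESeq2 gave no adjusted p. The summed level of the neuronal markers overlapped between the groups. All 4 neuronal markers tested had a higher fitted level in Hcy, with a median log2 fold change of 0.56, and Syt1 had groups that did not overlap (edgeR, unadjusted p = 0.0135, BH-adjusted p = 0.195). Their part in the values of Kcnc2 was not tested.

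The inward rectifiers were measured through 3 of their 15 genes. Kcnj2, which encodes the strong inward rectifier of capillary endothelium, had 110, 162 and 160 counts in the Hcy libraries against 141, 126 and 59 in the Veh libraries. Veh replicate 3 was the lowest library and Veh replicates 1 and 2 lay within or near the Hcy range, at 8.37 and 8.03 CPM against 7.90 to 10.9 CPM. The 1.38-fold higher mean fit had a 95% interval of 0.919 to 2.07 and did not pass (edgeR, BH-adjusted p = 0.508). Without Veh replicate 3 its log2 fold change was 0.20. Kcnj16, listed 47538 bases from Kcnj2, had 1 count over all libraries.

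Kcnj15, a rectifier known from kidney epithelium, had 18, 29 and 23 counts in the Hcy libraries against 20, 14 and 14 in the Veh libraries. Scaled to library size the groups did not overlap (1.29 to 1.95 against 0.892 to 1.19 CPM), but the log2 fold change of 0.59 did not pass (edgeR, BH-adjusted p = 0.483). Kcnj14, another strong inward rectifier, had 39, 39 and 20 counts in the Hcy libraries against 40, 28 and 22 in the Veh libraries, with groups that overlapped.

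Kcnj8 encodes the pore of the ATP-sensitive potassium channel of vessels and is a marker of brain pericytes. It had 5, 6 and 4 counts in the Hcy libraries against 7, 13 and 11 in the Veh libraries, so every Hcy library was below every Veh library. The level was 0.334 ± 0.0850 CPM with Hcy and 0.668 ± 0.221 CPM with Veh (SD, n = 3 each), and the log2 fold change of -0.99 did not pass (edgeR, BH-adjusted p = 0.46). Abcc9, which encodes its receptor subunit, had 2, 13 and 16 counts in the Hcy libraries against 6, 7 and 4 in the Veh libraries. Of the 13 pericyte and smooth muscle markers tested, a list that includes Kcnj8, 7 had a higher and 6 a lower fitted level in Hcy. The lower ones were Kcnj8 itself, Anpep, Acta2, Tagln, Cnn1 and Myh11. The higher ones were Pdgfrb, Cspg4, Rgs5, Abcc9, Notch3, Des and Vtn. The part of these markers in the values of Kcnj8 was not tested. Kcnj10, the rectifier of glia, had means of 0.162 CPM in Hcy and 0.394 CPM in Veh with groups that overlapped. Kcnj11, the pore gene of the pancreatic ATP-sensitive channel, had 5 counts, and Kcnj1, Kcnj3 and Kcnj6 had 0.

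Two-pore domain channels carry the potassium leak at rest. Of their 14 genes only Kcnk5, a channel opened by alkaline pH, was measurable, and it was so only through its Hcy mean. Kcnk5 had 26, 22 and 27 counts in the Hcy libraries against 19, 2 and 4 in the Veh libraries. The Hcy libraries lay at 1.48 to 1.87 CPM, and the Veh libraries at 0.127, 0.277 and, in replicate 1, 1.13 CPM. The 3.13-fold higher mean had a 95% interval of 1.21 to 8.07 and did not pass (edgeR, unadjusted p = 0.0235, BH-adjusted p = 0.257). Veh replicate 1 decided this result, because without it the log2 fold change was 3.00 instead of 1.65 and the adjusted p 0.0414.

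Kcnk2 encodes a channel opened by membrane stretch and lipids. It had 5, 5 and 11 counts in the Hcy libraries against 12, 20 and 18 in the Veh libraries. The groups did not overlap, with Hcy below Veh, although Hcy replicate 3 (0.656 CPM) was close to Veh replicate 1 (0.712 CPM). Its log2 fold change was -1.22 (SE 0.45, edgeR, unadjusted p = 0.0236, BH-adjusted p = 0.257).

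Kcnk6 had 9, 0 and 5 counts in the Hcy libraries and none in Veh, and thus passed the count minimum only through Hcy. Hcy replicate 2 had no count either, no fold is given, and the difference did not pass (edgeR, unadjusted p = 0.0295, BH-adjusted p = 0.29). Kcnk13 (9, 2 and 7 counts in Hcy, 2, 1 and 3 in Veh) and Kcnk12 (means of 0.115 and 0.372 CPM in Hcy and Veh) encode related channels, and each had groups that overlapped. The other 9 genes of this family had 6 counts or fewer.

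**Figure D4:**
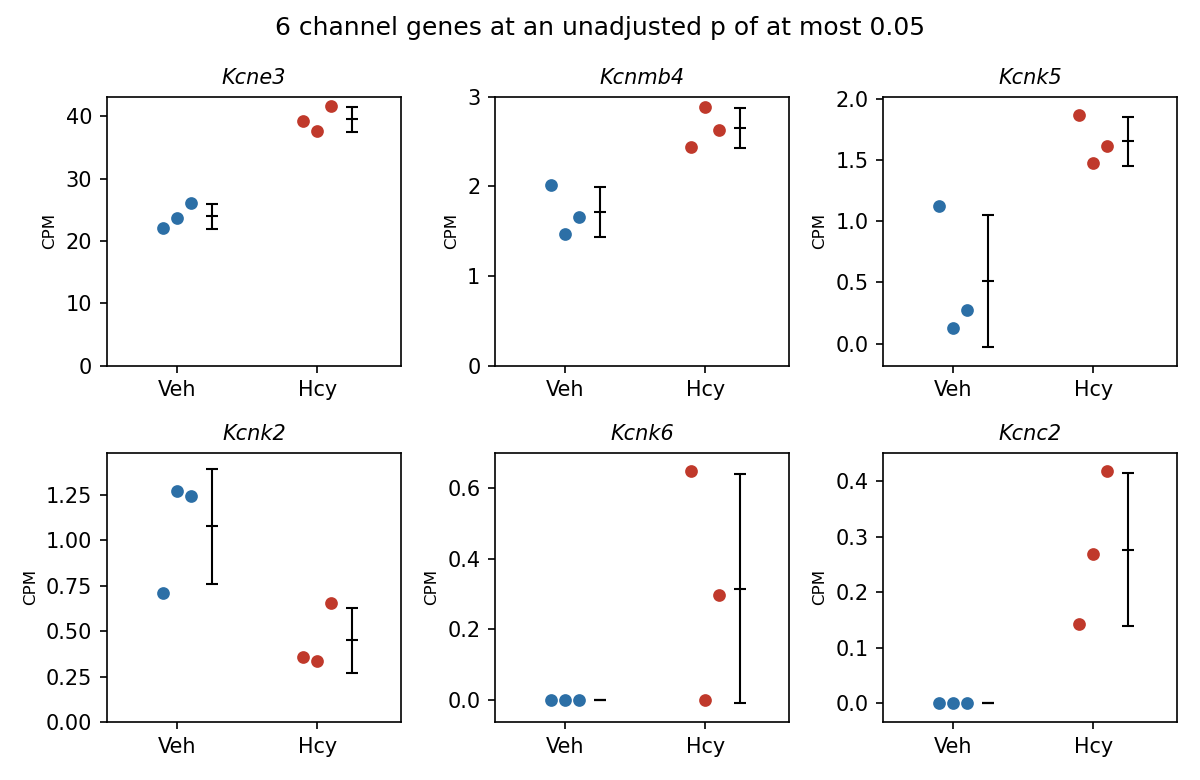
Level (CPM, vertical axis from 0 or just below) of 6 channel genes with an unadjusted p of at most 0.05 in edgeR's quasi-likelihood test, in 3 Veh (blue) and 3 Hcy (red) libraries, with the mean and SD of each group in black. The scales differ between panels, and Kcnk6 and Kcnc2 lie at 0 in all Veh libraries.

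Of the calcium-activated potassium channel genes only Kcnmb4 was measurable. It encodes a beta subunit of the large-conductance (BK) channel and is best known from brain. It had 34, 43 and 44 counts in the Hcy libraries against 34, 23 and 24 in the Veh libraries, at 2.65 ± 0.224 CPM and 1.71 ± 0.280 CPM (SD, n = 3 each). Scaled to library size every Hcy library was above every Veh library. The log2 fold change of 0.62 (SE 0.24) did not pass (edgeR, unadjusted p = 0.0292, BH-adjusted p = 0.289). Kcnma1, the gene for the BK pore to which this subunit binds, had 0 counts in all 6 libraries.

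Kcnmb1, the beta subunit gene of smooth muscle, had means of 0.356 CPM in Hcy and 0.145 CPM in Veh, with groups that overlapped, and it overlaps Kcnip1 in the listed positions. Kcnmb2 and Kcnmb3 had 0 counts. Kcnn4 and Kcnn3 encode the intermediate- and small-conductance channels that hyperpolarize arterial endothelium. Kcnn4 had 3, 1 and 1 counts in the Hcy libraries against 3, 9 and 5 in the Veh libraries, close to the floor, and Kcnn3 was at 0.152 CPM in Hcy and 0.150 CPM in Veh. Kcnn1 and the sodium-activated channel gene Kcnt1 were also under 0.5 CPM in both groups, and Kcnn2, Kcnt2 and Kcnu1 had 0 counts.

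The start sites of the channel genes were then compared, since CG-rich starts are common in genes used by many cell types. RefSeq start regions (GRCr8, 250 bases before to 50 after the start) matched 73 of the 109 genes, 6 of them with several starts, whose CG counts were averaged. The 3 shown are the most abundant gene, Kcne3, and the BK subunit genes Kcnmb4, which had reads, and Kcnma1, which had none. CG dinucleotides are in capitals and each run is on the strand of its gene, 5′ to 3′. Kcne3 is at chr1:163935785-163936084 on the plus strand with 11 CG, Kcnmb4 at chr7:54005052-54005351 on the minus strand with 48 CG, and Kcnma1 at chr15:351675-351974 on the plus strand with 38 CG.
Kcne3: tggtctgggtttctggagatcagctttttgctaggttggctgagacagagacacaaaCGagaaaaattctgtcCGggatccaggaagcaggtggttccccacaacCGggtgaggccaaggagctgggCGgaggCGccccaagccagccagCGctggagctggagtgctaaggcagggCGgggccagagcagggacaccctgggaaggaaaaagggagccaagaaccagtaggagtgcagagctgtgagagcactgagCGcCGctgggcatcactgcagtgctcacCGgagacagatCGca
Kcnmb4: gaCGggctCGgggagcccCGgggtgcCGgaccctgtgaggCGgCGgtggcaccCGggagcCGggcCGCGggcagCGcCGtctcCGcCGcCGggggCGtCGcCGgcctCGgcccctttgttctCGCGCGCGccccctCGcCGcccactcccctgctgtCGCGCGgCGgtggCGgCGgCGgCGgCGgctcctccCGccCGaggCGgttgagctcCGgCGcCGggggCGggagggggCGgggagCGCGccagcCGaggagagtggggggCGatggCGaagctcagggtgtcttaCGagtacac
Kcnma1: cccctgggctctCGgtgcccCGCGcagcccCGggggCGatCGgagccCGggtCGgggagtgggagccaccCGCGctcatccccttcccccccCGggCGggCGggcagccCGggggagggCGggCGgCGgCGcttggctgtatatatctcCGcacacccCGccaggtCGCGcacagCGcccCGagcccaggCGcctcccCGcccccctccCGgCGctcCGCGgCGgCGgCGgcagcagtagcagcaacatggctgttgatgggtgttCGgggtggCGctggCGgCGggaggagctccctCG

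The BK pore gene with no reads thus has a CG-rich start, like its transcribed beta subunit gene. Over all 73 genes the median was 11.5 CG in 300 bases, against 7 in the 33469 start regions of the reference. It was 19 in the 7 measurable genes with an entry (range 3 to 48), 11 in the 20 tested genes under 1 CPM, 11 in the 24 genes with 1 to 9 counts and 13.5 in the 22 genes without counts. The ranges of these classes overlapped widely. The letters GGGCGG, searched on both strands, were in 47.9% of the 73 genes and 33.1% of the reference regions. The letters TATAAA, also on both strands, were in 2.74% and 14.2%. GGGCGG was present in each of the 3 regions above and TATAAA in none. These are matches of letters, with no test.

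**Figure D5:**
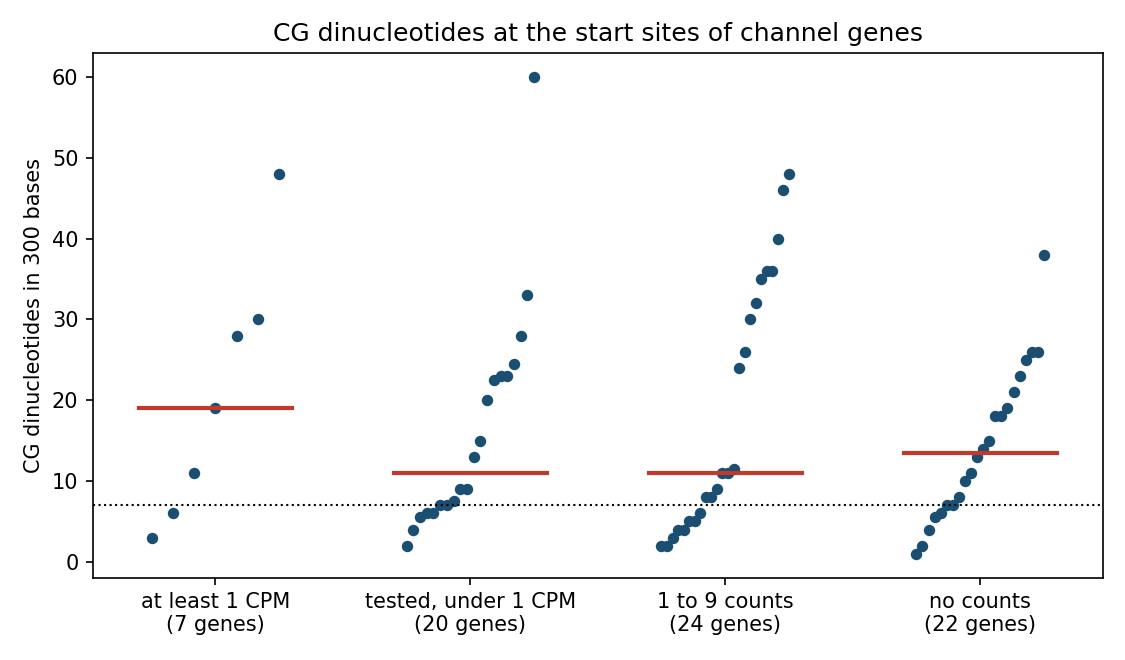
CG dinucleotides in 300 bases around the RefSeq start (vertical axis) of 73 channel genes, grouped by their reads in rBMECs (horizontal axis). Each point is a gene, red bars are medians (19, 11, 11 and 13.5) and the dotted line is the median of 7 over all reference start regions, and the 4 classes overlap.

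Of the 4 HCN genes, which are opened by hyperpolarization and by cyclic nucleotides, Hcn2 was measurable. It had 139, 130 and 147 counts in the Hcy libraries against 166, 150 and 133 in the Veh libraries, with ranges of 8.73 to 9.98 and 9.20 to 9.85 CPM. The groups overlapped, and the fold change of 0.96 had a 95% interval of 0.785 to 1.17, the second narrowest among the channel genes after that of Kcne3 on the log2 scale. Its BH-adjusted p in edgeR was 0.902. Hcn3 and Hcn4 had 4 and 6 counts over all libraries.

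The beta subunits of sodium channels change gating and delivery to the membrane. Scn3b had means of 0.322 CPM in Hcy and 0.146 CPM in Veh with groups that overlapped, and Scn2b and Scn4b had 1 and 6 counts.

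The sodium channel pore subunits had 10 genes, of which 6 were tested. Scn11a, known from pain-sensing neurons, had 10, 10 and 12 counts in the Hcy libraries against 6, 4 and 9 in the Veh libraries. Its groups did not overlap (0.672 to 0.718 against 0.255 to 0.623 CPM), and the log2 fold change of 0.77 did not pass (edgeR, BH-adjusted p = 0.545). Scn10a, another gene known from pain-sensing neurons, had 0 counts.

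The neuronal genes Scn2a, Scn3a and Scn8a and the muscle gene Scn4a had means under 0.6 CPM and groups that overlapped. Scn3a had 1, 4 and 13 counts in the Hcy libraries against 1, 3 and 0 in the Veh libraries, and replicate 3 held most of its Hcy counts. In the gene cluster on chromosome 3 that holds Scn3a and Scn2a (22 and 31 counts over all libraries), the neighbours Scn1a, Scn9a and Scn7a had 0, 1 and 4 counts.

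Genes that work with these channels were counted from a separate list of 52 genes, which holds receptor and auxiliary subunits, sodium channel partners, the sodium-potassium ATPase with its FXYD regulators, cation-chloride cotransporters, the epithelial sodium channel and the repressor gene Rest. The count table lists 49 of them and 25 were tested, of which 18 had a higher and 7 a lower fitted level in Hcy, with a median log2 fold change of 0.07. The only gene called was Fxyd6 (1 of 25, against 0.486% of all genes tested), which encodes a regulator of the sodium pump. Fxyd6 had 1284, 1337 and 1396 counts in the Hcy libraries against 673, 594 and 618 in the Veh libraries, with no overlap. It rose by 1.14 on the log2 scale, from a mean of 40.2 to one of 88.4 CPM (SE 0.08, n = 3 each, edgeR, BH-adjusted p = 0.000355). Rest, which represses neuronal channel genes, was at 27.5 ± 2.06 CPM with Hcy and 31.7 ± 9.59 CPM with Veh (SD, n = 3 each) and did not pass (edgeR, BH-adjusted p = 0.735).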

How the data were processed

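RNA-seq of 6 rBMEC libraries was used. The table the authors deposited holds unnormalized read counts for each gene, with gene positions and lengths. The submitters' processing notes name fastp, HISAT2 2.2.1, StringTie 2.2.3, Cufflinks, featureCounts 2.0.6 and DESeq2 1.42.0, and mRatBN7.2 (rn7). The count table names no build, and whether counting used the strand is not given in the sources used here, so reads of overlapping genes may be shared. A deposited table of the authors' own comparison (normalized counts, fold changes, p-values) was not used.

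Counts were analysed in R 4.3.3 with edgeR 4.0.16 (TMM factors of 0.977 to 1.02, quasi-likelihood test, group as the only term) and, as an alternative, DESeq2 1.42.0. The 14603 genes with at least 10 counts over 6 libraries were tested, with Benjamini-Hochberg adjustment over all of them. Fitted fold changes used a prior count of 0.125. SDs are over 3 libraries. Scripts were tested on simulated data. Alternatives were another scaling, filters, thresholds and prior count, the replicate block, and leaving out each library. The channel genes named with full values are those at an adjusted or unadjusted p of at most 0.05 and the 12 with the highest level per length. Further genes (such as Kcnj8 and Scn11a) were named after their values were seen. The genes and lists were chosen with earlier results of these data known. Some results are not reported here.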

Additional observations from a re-analysis of the deposited data

How the results depend on the processing

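The count of channel genes called was 0 with the replicate block, with filterByExpr or no count filter, with library totals or DESeq2's size factors as scaling, and with DESeq2 itself. It was 5 with the unadjusted p and 1 without the fold threshold, and 0 to 1 when single libraries were left out, the 1 being Kcnk5 without Veh replicate 1. Channel genes at an adjusted p of at most 0.05 with any fold numbered 2 with DESeq2 and 0 to 2 with each library left out, 0 without Hcy replicate 3. Those at an unadjusted p of at most 0.05 numbered 5 with filterByExpr, which tests fewer genes, and 5 to 9 with each library left out. Over all genes, the 71 called became 109 without a filter on low counts, 374 with the unadjusted p, 341 without the fold threshold, and 39 to 112 with each library left out, lowest without Hcy replicate 1 or 2 and highest without Veh replicate 3. The median log2 fold change was 0.46 over the 11 genes of at least 1 CPM, where Kcnk5 entered only through its Hcy mean. In settings chosen after seeing the data, it was 0.36 over the 10 genes at 1 CPM or more in each group and 0.12 without the genes at 0 in Veh. The number taken as measurable was 20 at a mean of 0.5 CPM and 27 at more than 3 counts in 3 libraries, so it rests on the level chosen. The log2 fold change of Kcnj14 was -0.0034 without Hcy replicate 1, with a range of -0.0034 to 0.51 over the libraries left out. That of Kcna7 was 0.022 with the replicate block, and ran from -0.54 to 0.20 over the libraries left out. The other channel genes recomputed, those named by the rule with Kcnj8 and Scn11a, kept their direction wherever they were tested, as did Fxyd6. For genes at 0 in every Veh library, such as Kcnc2 and Kcnk6, the direction could not turn, so nothing is read from it. The log2 fold change of Kcne3 lay between 0.67 and 0.79. The causes of these changes were not tested.

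Replicate numbers are not said to mark a shared isolation, so they were not taken as pairing the samples. After subtraction of the group means, libraries that share a number correlated at 0.024, 0.166 and 0.058 over 12296 genes. The mean was 0.083 for these pairs and -0.041 for pairs of other numbers. Of the 6 libraries, 3 were most like the library of their own number. These values do not settle whether the numbers pair the samples. With the replicate block 82 genes were called over all genes, 7 channel genes were at an unadjusted p under 0.05, and the log2 fold change of Kcne3 was 0.72 (edgeR, BH-adjusted p = 0.0113).

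Depth limits most of these genes. As far as counting error goes, a count of 0 allows up to 0.178 to 0.215 CPM, and 29 of the 40 genes tested had a mean under 1 CPM, where differences of a few reads decide a fold change. Among the 11 measurable genes, Veh replicate 3 and Hcy replicate 2 were each the lowest library of their group for 6, and Veh replicate 1 was the highest of its group for 8.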
